A study of Mus musculus with 6 samples.

Results

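Glycolysis, the pentose phosphate pathway and the transport of glucose and lactate were followed in the mouse uterus through 33 genes, chosen by symbol. The annotation of the array paired 29 of them with at least 1 probe set of short oligonucleotides, 45 probe sets in all, out of 8252 named genes and 12488 probe sets. Gpi1, Eno1, Slc16a3 and G6pdx were paired with none under a symbol of their own. The 45 probe sets include 6 control probe sets for Gapdh, and 2 more that Gapdh shares with pseudogenes were not used.

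The tissue was whole uterus of C57Bl/6 female mice, given as 10 to 11 weeks old, although the labels also state 3 weeks of acclimation after arrival at 10 weeks. All mice, controls included, were ovariectomised and killed 7 days later, so that estradiol reached an organ deprived of ovarian hormones. The control group received vehicle under the skin 24 h before sacrifice, and the 5 other groups a single injection of estradiol (E2, 0.05 µg per mouse) and were killed after 1 h, 3 h, 6 h, 12 h and 24 h. RNA of pooled uteri was hybridised to 1 Affymetrix U74Av2 array per group, and the labels mention 10 mice without saying whether that is per group. No group had a replicate, so differences are given as sizes, without a test, and cannot be set against the spread between animals. Only the 24 h comparison is matched to vehicle in time since injection. In a whole organ, fewer cells of a type and less RNA per cell cannot be told apart.

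Glucose enters cells through facilitative transporters of the Slc2a family and is trapped by hexokinase. The steps from there to pyruvate yield ATP and NADH, and lactate dehydrogenase regenerates the NAD that the Gapdh step needs. The pentose phosphate pathway branches off at glucose 6-phosphate and supplies NADPH and ribose for lipid and nucleotide synthesis. Estrogen is known to raise glucose uptake and growth of the uterus. Many steps are covered by several isoforms from separate genes, some ubiquitous and some typical of muscle, liver or brain.

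Values are MAS5 signal, a background-corrected brightness on a linear scale. Values under 142.8 units, the 40th percentile of all values, were treated as not measured, and a fold against such a value is given as "at least". A gene is read by its brightest probe set, and 2-fold from vehicle was the minimum for counting it. Second probe sets of Slc2a4, Pfkfb3, Ldhb, Pgd and Gpd1 were under 142.8 on every array. On 5 of the arrays, vehicle, 1, 6, 12 and 24 h, Spearman's rho across all probe sets was 0.929 to 0.968. The array labelled 3 h stood apart from these at 0.844 to 0.857 and went against its label. All 10 uterine epithelium markers on the array reached the detection floor on each of the 5 arrays but only 2 on this one. Skeletal muscle markers summed to 100422 there against 2854 to 4375 on the others. It is therefore described separately, and "the 5 arrays" below leaves it out.

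Of the 29 genes, 25 reached the floor on at least 1 of the 5 arrays and 22 on all 5. The muscle form of phosphoglycerate mutase (Pgam2), the lactate carrier Slc16a1 and both fructose bisphosphatases (Fbp1, Fbp2) did not, with signals of 5.1 to 112.8.

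Of the 25 measured genes, 13 (52.0%) had their highest signal among the 5 arrays at 24 h, against 17.3% of all 6332 genes measured on them, among them the glucose transporter Slc2a1, Aldoa, Tpi1, Gapdh, Pgk1, Pkm and Ldha. Of the same 25, 9 (36.0%) had their lowest signal at 1 h, against 17.6% of all, Gapdh, Ldha, Pkm and Pgk1 among them. Another 8 (32.0%) were lowest at 12 h, against 19.0% of all. Among those 8 were genes that lay on the other side. The hexokinase Hk1, the lactate dehydrogenase subunit Ldhb, the insulin-responsive transporter Slc2a4 and the glycerol phosphate dehydrogenase Gpd1 were below vehicle at 6, 12 and 24 h.

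One hour after estradiol no member was 2-fold higher (0.928% of all measured genes were) and 1 of 25, Pklr, was 2-fold lower (background 0.381%). The median log2 ratio was -0.14 (all genes -0.01), and 18 of the 25 lay below vehicle, as did 3068 of all 6035 measured genes. At 6 h, 2 of 25 members were higher (background 6.91%) and 2 lower (background 9.10%), shares near those of all genes. At 12 h, 4 were higher (16.0%, background 6.70%) and 4 lower (16.0%, background 7.55%), with a median of -0.07 against -0.04 for all genes. At 24 h, 4 were higher (16.0%, background 3.69%) and 1 of 25 lower (background 3.82%), with a median of 0.19 against -0.04. With quantile normalization the count of higher members at 24 h was 2, since Tpi1 and Ldha then stood at log2 ratios of 0.97 and 0.91. On the same 24 h array the summed signal of epithelial markers was 16666 against 11815 in vehicle, that of smooth muscle markers 68871 against 50824 and that of stromal markers 84774 against 61090. Of the 10 stromal markers 5 were higher and 5 lower at 24 h: the collagen genes Col1a1, Col1a2 and Col3a1 were 2-fold higher, while Pdgfra and Dcn stood at log2 ratios of -0.75 and -0.81. At 6 h the stromal sum was 32807. The part of these in the members' values was not tested.

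**Figure D1:**
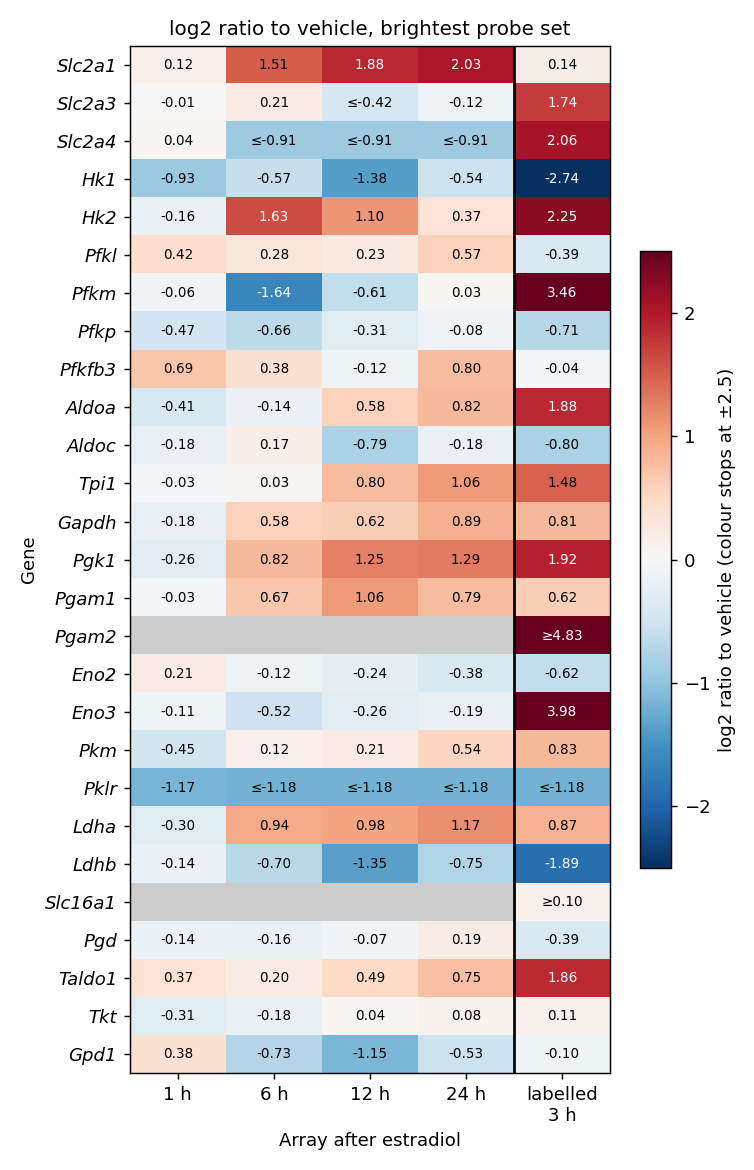
Log2 ratio to vehicle of the 27 members with a value, with columns for the arrays at 1, 6, 12 and 24 h after estradiol and, right of the line, the array labelled 3 h. Red is higher and blue lower than vehicle, ≥ and ≤ mark bounds against the detection floor, and grey means below the floor on both arrays. Slc2a1 reaches 2.03 at 24 h, while Hk1 and Ldhb are at -1.38 and -1.35 at 12 h and at -2.74 and -1.89 on the array labelled 3 h.

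Promoters are shown for 8 genes, because the hypoxia-inducible factor, a known activator of glycolysis genes, binds the core ACGTG. Slc2a1, Hk2, Pgk1, Pgam1, Ldha and Tpi1 were 2-fold above vehicle on at least 1 of the 5 arrays, and Hk1 and Ldhb 2-fold below. They were picked after their values were seen. Each window holds 250 bases before and 50 after the start of transcription, from RefSeq (GRCm38.p6), and capitals mark ACGTG on either strand. Slc2a1 is at chr4:119108495-119108794 (+), Hk2 at chr6:82774405-82774704 (-), Pgk1 at chrX:106186850-106187149 (+), Pgam1 at chr19:41911621-41911920 (+), Tpi1 at chr6:124814109-124814408 (-), Hk1 at chr10:62340372-62340671 (-), Ldha at chr7:46845554-46845853 (+) and Ldhb at chr6:142507908-142508207 (-). Hk1 and Ldha have 2 windows each, of which the one with matches is shown, and the other has none.
Slc2a1: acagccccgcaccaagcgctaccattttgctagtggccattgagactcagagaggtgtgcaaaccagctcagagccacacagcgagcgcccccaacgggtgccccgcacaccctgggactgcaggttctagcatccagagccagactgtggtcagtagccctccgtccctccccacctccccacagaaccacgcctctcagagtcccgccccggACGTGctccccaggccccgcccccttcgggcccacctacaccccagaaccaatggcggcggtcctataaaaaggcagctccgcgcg
Hk2: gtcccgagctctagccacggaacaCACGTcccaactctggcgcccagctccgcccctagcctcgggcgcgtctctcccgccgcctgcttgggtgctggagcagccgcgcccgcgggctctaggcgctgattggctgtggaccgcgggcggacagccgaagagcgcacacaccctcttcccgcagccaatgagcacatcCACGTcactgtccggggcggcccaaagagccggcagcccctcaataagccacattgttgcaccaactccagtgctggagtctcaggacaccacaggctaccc
Pgk1: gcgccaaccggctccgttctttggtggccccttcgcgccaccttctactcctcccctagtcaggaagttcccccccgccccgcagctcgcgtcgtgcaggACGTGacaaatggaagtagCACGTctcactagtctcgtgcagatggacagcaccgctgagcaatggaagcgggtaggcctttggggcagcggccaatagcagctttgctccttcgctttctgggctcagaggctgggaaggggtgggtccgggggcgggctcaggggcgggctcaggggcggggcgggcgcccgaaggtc
Ldha: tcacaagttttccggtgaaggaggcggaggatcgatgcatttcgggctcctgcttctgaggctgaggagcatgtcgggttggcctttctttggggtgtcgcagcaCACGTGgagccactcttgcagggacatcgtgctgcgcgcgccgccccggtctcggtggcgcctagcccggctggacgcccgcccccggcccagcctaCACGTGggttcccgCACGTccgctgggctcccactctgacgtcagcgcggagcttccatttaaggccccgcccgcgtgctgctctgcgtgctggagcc
Pgam1: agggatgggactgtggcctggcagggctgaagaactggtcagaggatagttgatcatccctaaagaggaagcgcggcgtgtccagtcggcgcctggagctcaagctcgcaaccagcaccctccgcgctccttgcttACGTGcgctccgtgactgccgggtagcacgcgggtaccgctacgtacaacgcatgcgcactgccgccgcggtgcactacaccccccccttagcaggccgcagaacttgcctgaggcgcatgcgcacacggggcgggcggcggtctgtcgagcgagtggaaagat
Tpi1: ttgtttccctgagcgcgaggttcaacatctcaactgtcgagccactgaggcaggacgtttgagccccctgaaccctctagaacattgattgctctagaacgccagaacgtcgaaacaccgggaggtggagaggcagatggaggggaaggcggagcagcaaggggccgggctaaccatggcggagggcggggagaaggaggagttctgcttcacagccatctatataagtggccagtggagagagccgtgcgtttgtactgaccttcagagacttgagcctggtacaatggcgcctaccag
Hk1: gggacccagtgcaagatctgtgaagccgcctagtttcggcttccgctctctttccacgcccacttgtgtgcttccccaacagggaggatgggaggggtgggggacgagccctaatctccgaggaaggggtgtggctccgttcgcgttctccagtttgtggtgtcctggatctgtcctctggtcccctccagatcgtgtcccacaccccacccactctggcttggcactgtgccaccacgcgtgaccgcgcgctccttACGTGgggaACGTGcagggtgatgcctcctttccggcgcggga
Ldhb: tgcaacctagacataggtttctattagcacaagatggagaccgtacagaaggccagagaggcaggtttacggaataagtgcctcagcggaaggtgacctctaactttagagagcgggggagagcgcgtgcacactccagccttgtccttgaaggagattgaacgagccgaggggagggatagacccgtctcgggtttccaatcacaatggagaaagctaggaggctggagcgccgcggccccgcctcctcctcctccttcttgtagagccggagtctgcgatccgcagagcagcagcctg
In Slc2a1 the single match begins at position -36 from the start, and in Pgk1 the matches begin at -150 and -131. Those of Hk2 begin at -226 and -52. Ldha has 5 matches, 4 of them in 2 palindromic CACGTG boxes that are counted once per strand, at -145, -144, -48 and -47, and one at -34. Pgam1 has one at -114. Hk1, which was lower, has matches as well, at 7 and 16 past the start, while Tpi1, which was higher, and Ldhb have none in these windows. Pfkm and Pklr, which were also 2-fold lower on at least 1 of the 5 arrays, are not shown, and Gpd1, lower as well, has no window. The 8 therefore cannot tell whether the core goes with the direction of the difference, which was not tested. RefSeq windows matched 30 of the 33 symbols, all but Slc2a3, Slc2a4 and Gpd1, with 44 windows, some of them overlapping. Eno1, Gpi1, G6pdx and Slc16a3, which have no value on the array, are among the 30. Of these, 43.2% hold ACGTG against 19.6% of all 32851 windows, 11.4% hold CACGTG against 7.15% and 54.5% the GC box GGGCGG against 35.7%. GGTCA, one arm of the estrogen response element, is in 52.3% against 40.5%, and the full element, in which TGACC follows that arm after 3 bases, in 0 against 0.0700%. The members' windows are richer in G and C, with a median of 58.2% and 18.0 CG pairs against 52.7% and 7.00, and ACGTG holds such a pair. A match describes the letters only.

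Among the transporters, Slc2a1, the basal glucose carrier of most cells, had a signal of 152.9 in vehicle and 166.4, 434.8, 564.6 and 623.1 at 1, 6, 12 and 24 h. The first pair lay just above the floor and the later 3 well clear of it, which is 2.84-fold, 3.69-fold and 4.08-fold above vehicle. It held rank 45 of 6071 genes from the top at 24 h. The size of these folds rests on the low vehicle value. With the floor at the 60th percentile, which replaces that value, the log2 ratios were 0.30, 0.68 and 0.82. With the floor at the 20th percentile they were unchanged. Slc2a4, the transporter that insulin moves to the surface of fat and muscle cells, had 268.0 in vehicle and 274.9 at 1 h, then 64.6, 33.7 and 82.3. The last 3 are below the floor, so it was at least 1.88-fold lower at each of these times. Slc2a3, a transporter of high affinity, stayed between 115.2 and 220.6 by its brighter probe set. The other probe set of Slc2a3 was above the floor only at 1 h among the 5 arrays, with 197.4, at least 1.38-fold above vehicle.

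Adipocyte markers were also lower from 6 h. Their summed signal was 13812 in vehicle and 14731, 7520, 5393 and 4767 at 1, 6, 12 and 24 h, with 6 or 7 of 8 markers at or above the floor. The fat hormone gene Adipoq had 4283 and 4407 on the first pair of arrays and 2216, 1460 and 1482 on the later ones. Retn, Cidec, Lpl and Car3 were also 2-fold lower at 24 h, at log2 ratios of -1.51, -1.38 or less, -1.85 and -1.94. The part of adipose tissue in the Slc2a4 values was not tested.

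**Figure D2:**
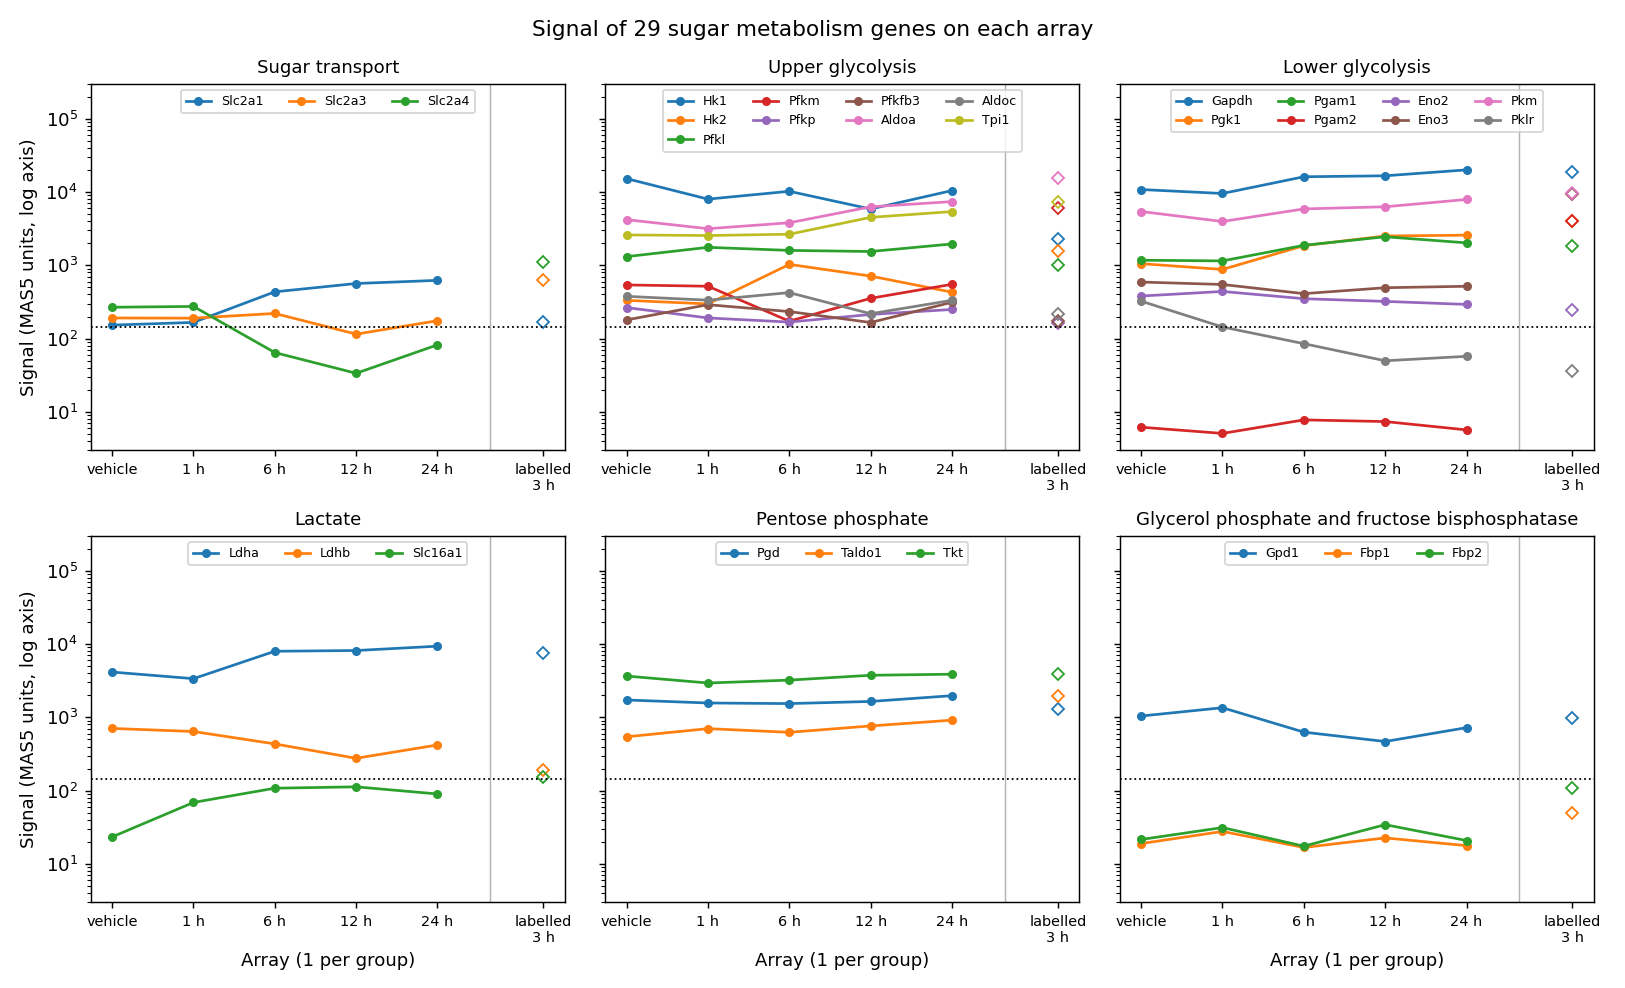
Signal of the 29 genes on each array, in MAS5 units on a log axis, in 6 panels by role, with vehicle, 1, 6, 12 and 24 h joined by lines and the array labelled 3 h as open diamonds. The dotted line is the detection floor of 142.8, and each point is 1 array. Slc2a1 lies at 152.9 in vehicle and 623.1 at 24 h, while Slc2a4 is under the floor from 6 h.

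The hexokinases, which phosphorylate glucose on entry, differed from each other in direction at 12 h. Hk2, the inducible form typical of insulin-sensitive and growing tissue, had 332.7 in vehicle and 297.4, 1029, 712.9 and 429.8 at 1, 6, 12 and 24 h. It was thus highest at 6 h (3.09-fold), still 2.14-fold above vehicle at 12 h, and within 2-fold again at 24 h. Its second probe set lay far below the floor on all 6 arrays.

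Hk1, the housekeeping form bound to mitochondria, had 15209 in vehicle and 7985, 10213, 5856 and 10447 at 1, 6, 12 and 24 h. The vehicle array was the highest and the 12 h array the lowest, 2.60-fold apart. The signal was already 1.90-fold lower at 1 h, rank 34 of 6035 genes from the bottom. With the mean of vehicle and 1 h as the reference, the log2 ratio at 12 h was -0.91 in place of -1.38, under the 2-fold minimum, and those at 6 and 24 h were -0.11 and -0.08 in place of -0.57 and -0.54. The lower values at 6 and 24 h thus rest on the vehicle array.

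Phosphofructokinase, the committing step of glycolysis, has 3 subunit genes. The liver-type Pfkl was 1313 in vehicle and 1758, 1596, 1542 and 1955 at 1, 6, 12 and 24 h, at most 1.49-fold higher. The muscle-type Pfkm was lowest at 6 h, with 539.7 in vehicle and 518.2, 173.1, 354.7 and 550.7 at 1, 6, 12 and 24 h. At 6 h it was 3.12-fold lower (a log2 ratio of -0.61 with the floor at the 60th percentile), and at 24 h it differed from vehicle by 1.02-fold. The platelet-type Pfkp went from 265.1 to 168.3 at 6 h and back to 249.9 at 24 h, within 2-fold throughout. Pfkfb3, which makes the activator fructose 2,6-bisphosphate, had 180.0 in vehicle, 290.3 at 1 h and 313.3 at 24 h, with 234.0 and 165.9 between, and no time reached 2-fold.

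Aldoa, the main aldolase, had 4190 in vehicle and 3155, 3801, 6275 and 7389 at 1, 6, 12 and 24 h. It was 1.76-fold above vehicle at 24 h, and its other probe set 1.26-fold. Names ending in _f_at, as both have, mark probes that can match related transcripts. Aldoc, the brain-type aldolase, was lowest at 12 h, with 218.5 against 377.6. Tpi1, triose phosphate isomerase, stood at 2594, 2548 and 2653 in vehicle and at 1 and 6 h, then at 4506 at 12 h and 5398 at 24 h. It was 1.02-fold above vehicle at 6 h, 1.74-fold at 12 h and 2.08-fold at 24 h. Of the 5 arrays, those at 12 h and 24 h were thus the highest for Aldoa and Tpi1, with Aldoa under 2-fold on both. Slc2a1 and Hk2 were 2-fold above vehicle at 6 h already.

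Gapdh, which reduces NAD at the middle of the pathway and is widely used as a reference gene, is read by 3 control probe sets along its transcript. The 5′ probe set had 10795 in vehicle and 9534, 16118, 16614 and 20006 at 1, 6, 12 and 24 h. Relative to vehicle that is 1.49-fold, 1.54-fold and 1.85-fold higher at 6, 12 and 24 h, never 2-fold. The middle probe set was 1.89-fold and the 3′ probe set 1.87-fold higher at 24 h, and at each of these 3 times the log2 ratios of all 3 lay within 0.07 of each other. The 3′ to 5′ ratio, a measure of RNA integrity, was 0.793 to 0.892 over all 6 arrays. Transcripts of Gapdh pseudogenes cannot be told apart from it by these probes. A log2 ratio of 0.89 at 24 h put Gapdh at rank 283 of 6071 genes from the top.

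**Figure D3:**
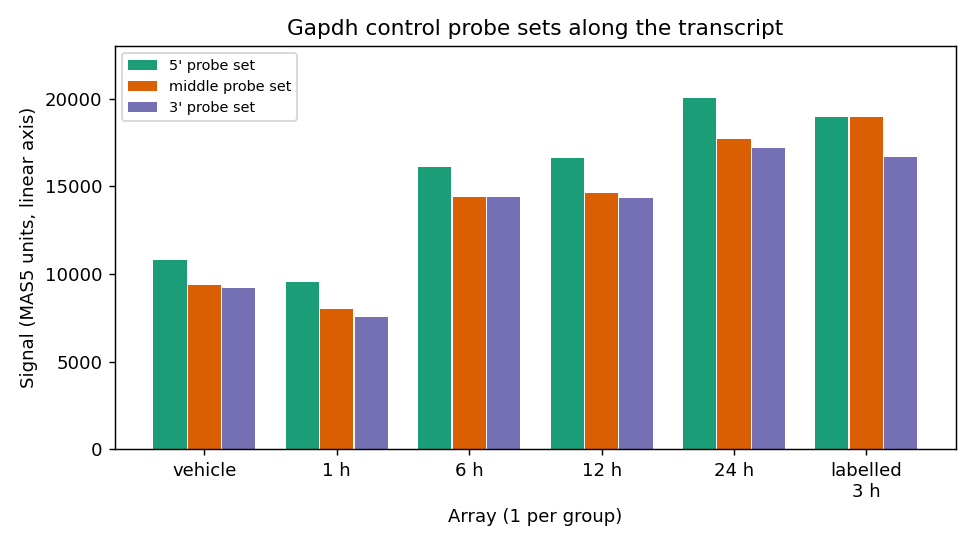
Signal of the 5′, middle and 3′ Gapdh control probe sets on each of the 6 arrays, in MAS5 units on a linear axis from 0. Vehicle and 1 h lie between 7563 and 10795, and the 6, 12 and 24 h arrays between 14338 and 20006 on all 3 probe sets.

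Past Gapdh, Pgk1, which makes the first ATP of the lower pathway, had 1053 in vehicle and 877.5, 1853, 2511 and 2575 at 1, 6, 12 and 24 h. It was 1.76-fold, 2.39-fold and 2.45-fold above vehicle at the last 3 times. Pgam1, the common phosphoglycerate mutase, had 1173, 1148, 1873, 2449 and 2023 in the same order, highest at 12 h at 2.09-fold. Both had lower values at 1 h than on any other of the 5 arrays.

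The enolases on the array did not share that pattern. Eno2, the neuronal form, ran from 381.0 in vehicle to 292.8 at 24 h, and Eno3, the muscle form, from 590.9 to 517.6 with a low of 410.7 at 6 h. Neither was 2-fold from vehicle on any of the 5 arrays.

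Pkm, the pyruvate kinase of most tissues, had 5414 in vehicle and 3957, 5872, 6283 and 7897 at 1, 6, 12 and 24 h by its brighter probe set, 1.46-fold higher at the last. The other probe set ran from 1360 and 1476 to 1858, 2452 and 3398, a log2 ratio of 1.32 at 24 h. Both put 24 h highest, but their log2 ratios there differed by 0.78, so the size is uncertain. Their names end in _s_at and _f_at, so either can match other transcripts too. Pklr, the liver and red cell form, had 324.5 in vehicle, 144.2 at 1 h and 85.4, 49.9 and 57.4 later. It was 2.25-fold lower at 1 h and at least 2.27-fold lower after that, by a probe set (_s_at) that can match more than 1 transcript, while its second probe set never reached the floor. A single bright value, that of vehicle, sets this difference: against the mean of vehicle and 1 h, the log2 ratio at 6, 12 and 24 h was -0.60 or less.

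The subunits of lactate dehydrogenase lay on opposite sides of vehicle from 6 h. Ldha, the form that favours lactate production, had 4145 in vehicle and 3367, 7965, 8148 and 9340 at 1, 6, 12 and 24 h. It stood 1.92-fold, 1.97-fold and 2.25-fold above vehicle, so the earlier pair fell just short of the minimum and passed it when arrays were scaled to the same median (1.04 and 1.04 on the log2 scale). Ldhb, the heart-type form, had 706.0, 641.2, 434.2, 276.6 and 420.2 and was lowest at 12 h, 2.55-fold below vehicle. The later 3 arrays thus lay above the first pair for Ldha and below it for Ldhb. Each is a single array at its own time, and the share of all genes split in this way was not computed. Slc16a1, which carries lactate across the membrane, had 23.4 in vehicle and 69.1 to 112.8 after estradiol, all below the floor, so no fold is given.

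**Figure D4:**
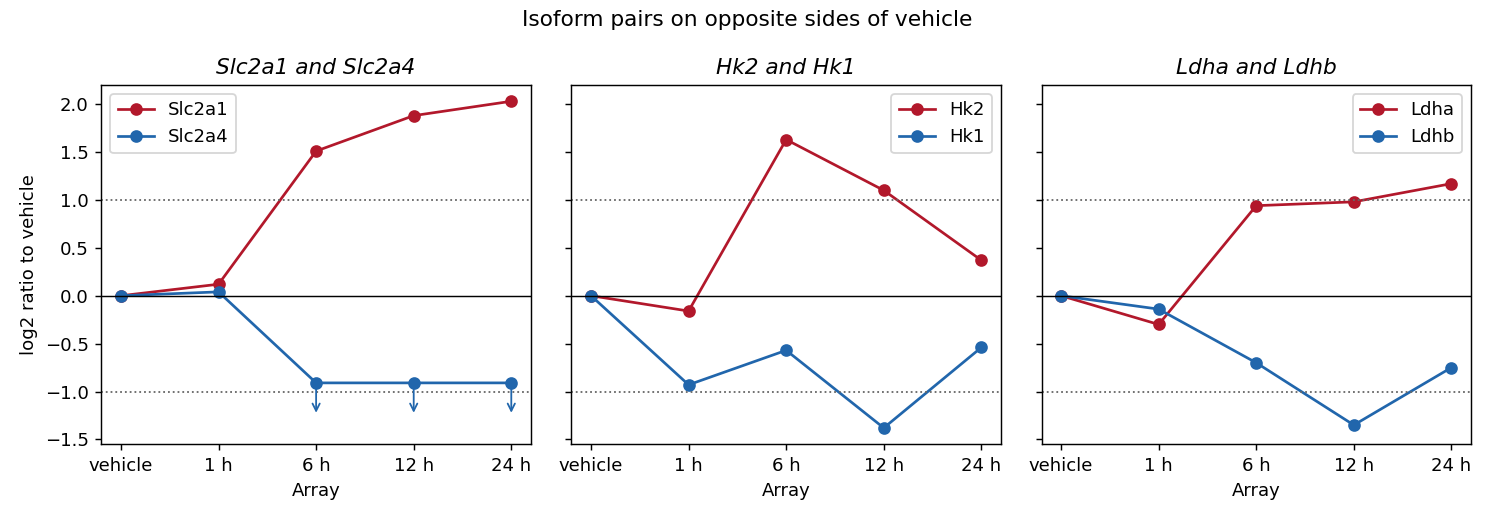
Log2 ratio to vehicle of Slc2a1 and Slc2a4, Hk2 and Hk1, and Ldha and Ldhb on the vehicle, 1, 6, 12 and 24 h arrays, with dotted lines at 2-fold and arrows where the value is an upper bound. The pairs were chosen after the values were seen. At 12 h Ldha is at 0.98 and Ldhb at -1.35, Hk2 at 1.10 and Hk1 at -1.38.

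In the pentose phosphate pathway no measured gene reached 2-fold on the 5 arrays. Pgd, the second NADPH-producing enzyme, stayed between 1540 and 1973. Tkt, transketolase, stayed between 2939 and 3875. Taldo1, transaldolase, which links the pathway back to glycolysis, had 543.0 in vehicle and 701.4, 624.9, 763.2 and 915.1 at 1, 6, 12 and 24 h. Its 1.69-fold at 24 h was the largest of the 3. G6pdx, the entry enzyme, was not analysed here.

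Gpd1, which turns a glycolytic intermediate into glycerol 3-phosphate and is abundant in fat, had 1042 in vehicle and 1353, 628.5, 468.2 and 723.2 at 1, 6, 12 and 24 h. It was 2.23-fold lower at 12 h. Of the adipocyte markers, Adipoq and Fabp4 were also lowest at 12 h, with Fabp4 at 211.1 there and 244.5 at 24 h, while Retn, Lpl and Car3 were lowest at 24 h. The part of adipose tissue was not tested here either.

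Of 86 genes on 6 lists around the pathway, 65 were on the array. At 1 h 1 of 49 measured was 2-fold higher and none lower, at 6 h 4 of 49 were higher and 5 lower, at 12 h 5 of 50 and 5, and at 24 h none of 48 and 2. As shares, 8.16% were higher and 10.2% lower at 6 h, near the 6.91% and 9.10% of all genes, and 10.0% each way at 12 h against 6.70% and 7.55%. At 24 h 4.17% were lower against 3.82%. Of 8 other pentose phosphate and ribose genes 6 were measured, and none was at 2-fold on the 5 arrays. Among isoforms and regulators, the ADP-dependent glucokinase Adpgk was at least 2.23-fold and 2.52-fold higher at 6 and 12 h, and Galt, of galactose breakdown, 2.47-fold lower at 6 h.

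Some genes that limit the oxidation of pyruvate, or make glucose, were lower. Pdk4, a kinase that inactivates pyruvate dehydrogenase, had 428.0 in vehicle and 458.0, 186.1, 74.8 and 229.8 at 1, 6, 12 and 24 h, 2.30-fold lower at 6 h and at least 3.00-fold at 12 h. Pdk1, of the same family, was at least 2.52-fold lower at 6 h and 1.20-fold higher at 24 h. Pck1, a gluconeogenic enzyme also active in fat, was 3.04-fold lower at 12 h. In this list of 11 measured genes 2 were lower and none higher at 6 h and again at 12 h, and none either way at 24 h. Of all genes, 9.10% were lower at 6 h and 7.55% at 12 h. Its median log2 ratio was -0.33 at 6 h (all genes -0.05), 0.00 at 12 h and 0.06 at 24 h. In glycogen metabolism, 1 of 9 measured genes was 2-fold lower at 6 h, the brain-type phosphorylase Pygb (3.19-fold), a share near the 9.10% of all genes. For the hexosamine branch, Gnpnat1 was 2.88-fold higher at 12 h and Gfpt2 2.06-fold lower at 24 h.

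Genes of the hypoxia response outside glycolysis lay on both sides of vehicle. The list holds genes that hypoxia is known to induce and also the response machinery, Hif1a, Epas1, Arnt and Vhl among it. Of its 13 measured genes, 3 were 2-fold higher and 1 lower at 6 h (6.91% and 9.10% of all genes). At 12 h 3 were higher and 3 lower (6.70% and 7.55% of all genes). Vegfa, the angiogenic factor, had 229.2 in vehicle and 403.9, 1047, 546.5 and 296.6 at 1, 6, 12 and 24 h. Adm, the vasodilator adrenomedullin, was highest at 1 h (5.75-fold) and 1.14-fold above vehicle at 24 h. P4ha1, a collagen prolyl hydroxylase, was 2.08-fold and 2.29-fold higher at 6 and 12 h. Ndrg1 was 2.57-fold lower at 12 h and 2.11-fold at 24 h, and Bnip3 and Ddit4 were also 2-fold lower at 12 h, the latter pair named after their values were seen. The median of the list was 0.17 at 6 h, 0.21 at 12 h and 0.19 at 24 h. At 24 h Vegfa, Adm and P4ha1 were within 1.29-fold of vehicle, as was Hk2, while Slc2a1, Pgk1 and Ldha were above 2-fold and Pgam1 at 1.72-fold.

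On the array labelled 3 h, 10 of 27 measured members were at least 2-fold above vehicle (37.0%, background 11.4%) and 3 below (11.1%, background 13.0%). Pgam2 had a signal of 4071 there and 5.1 to 7.8 on the 5 arrays, at least 28.5-fold. Eno3 had 9337 against 410.7 to 590.9, Pfkm 5953 against 173.1 to 550.7, and Slc2a4 1119 against 33.7 to 274.9. These 4 are isoforms typical of striated muscle. Each value lay above the gene's range on the 5 arrays, and the share of all genes outside that range was not computed. Aldoa (15446), Tpi1 (7241), Pgk1 (3974), Hk2 (1582), Slc2a3 (637.7) and Taldo1 (1978) were also 2-fold above vehicle, and Hk1 (2270), Ldhb (189.9) and Pklr (36.6) below. Gapdh, at a log2 ratio of 0.81, was at 1.32 with quantile normalization, and Slc2a3, at 1.74, was at 0.85 under the higher floor. Without Slc2a4, Gpd1, Pgam2, Eno3 and Pfkm, a choice made after seeing the data, 6 were higher. All of these but Gpd1 were among the 10, so the count had to fall.

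The same array had 11 of 12 skeletal muscle markers at or above the floor, against 3 to 5 on the others. Ckm, muscle creatine kinase, read 3341 against 11.1 to 57.9, and Acta1, skeletal actin, 18759 against 320.5 to 2566. The epithelial keratin Krt18 was at 64.9 against 1156 to 2285, the smooth muscle myosin Myh11 at 242.9 against 6948 to 10820, and the haemoglobin gene Hba-a1 at 25144 against 1692 to 3219. Of 12 glycogen genes measured, 8 were 2-fold higher and 1 lower. What part other tissue has in these values was not tested, and none of them is used for the course after estradiol.

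**Figure D5:**
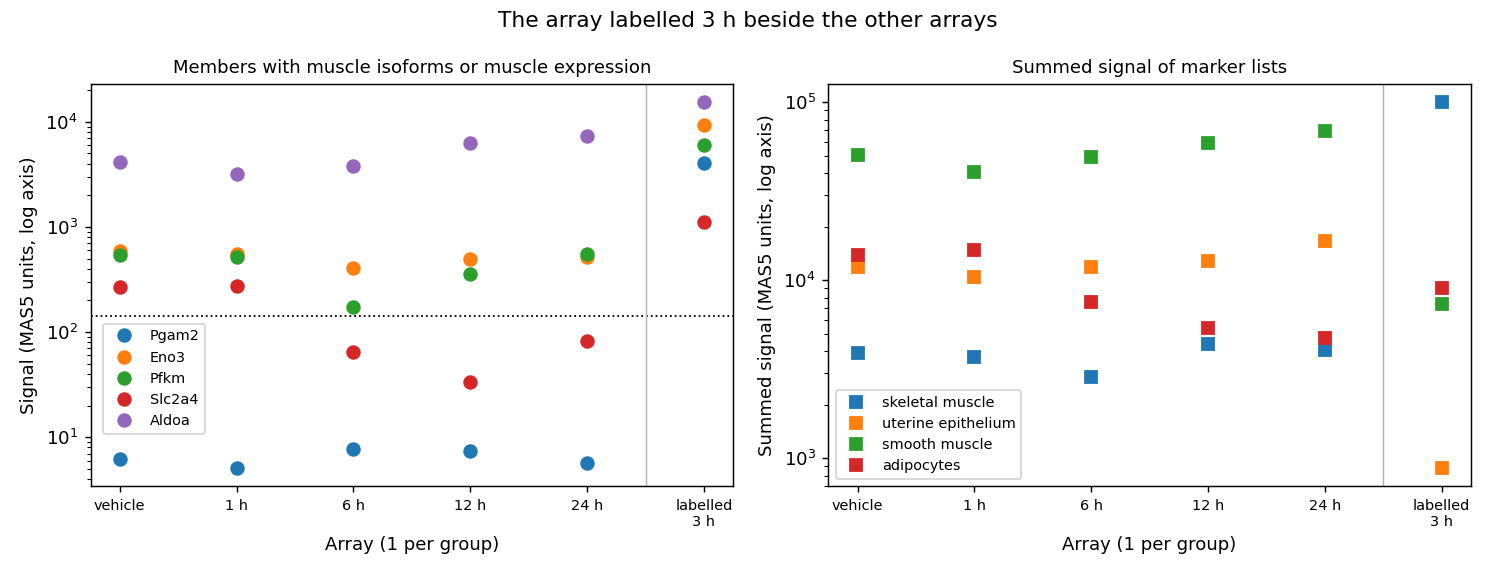
Left, signal of Pgam2, Eno3, Pfkm, Slc2a4 and Aldoa on each array, and right, summed signal of 4 marker lists, both in MAS5 units on log axes, with the array labelled 3 h right of the line and the detection floor dotted. Skeletal muscle markers sum to 100422 on that array and to at most 4375 on the others, while epithelial markers sum to 881.7 against at least 10438.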

How the data were processed

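Values are signal intensity that the authors deposited as 1 value per probe set and array, made with MAS5 per the submitters' processing notes. Its version and settings are not given in the sources used here. The 2% trimmed mean over all probe sets was 500.2 to 500.3 on every array. Here the 6 arrays were rescaled to a common 2% trimmed mean over 12422 non-control probe sets (factors 0.9991 to 1.0007), values below the 40th percentile (142.8) were raised to it, and log2 was taken (numpy 2.4.6, pandas 2.3.3, Python 3.11.15). The array annotation gave 10833 non-control probe sets 1 symbol, 396 several and 1193 none. Symbols were updated by gene identifier in RefSeq (GRCm38.p6, 10817 matched). Genes below the floor on both arrays of a comparison were left out of it. With 1 array per group nothing was tested, and precision is limited by how few arrays there are. The calculation was tested on simulated data.

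Members and lists were chosen with earlier results of these data known. Named are every member and, per list, up to 4 genes with the largest log2 ratio among those at 2-fold at 1, 6, 12 or 24 h. Of the markers, the defining ones are named, and of those at 2-fold at 24 h the adipocyte and collagen genes. Pdgfra, Dcn, Wt1 and Fabp4 are named besides, outside these rules. Of 73 marker symbols on 8 lists 67 were found. At 24 h, 2 of 10 epithelial, 1 of 8 smooth muscle, 3 of 10 stromal and 1 of 5 measured skeletal muscle markers were 2-fold higher. Lower by 2-fold were 2 of 8 endothelial and 5 of 7 measured adipocyte markers. No macrophage and leukocyte or blood marker was 2-fold either way. Of all genes, 3.69% were higher and 3.82% lower at 24 h. Summed signals on the 5 arrays were 5077 to 7033 for endothelium, 4116 to 7001 for macrophages and leukocytes and 1878 to 3467 for blood. Alternatives were 2 other scalings, 2 other floors, the median of a gene's probe sets and another reference.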

Additional observations from a re-analysis of the deposited data

Results flagged for a closer look

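Pfkm, the muscle-type phosphofructokinase subunit, was 2-fold or more on opposite sides of vehicle on 2 arrays. The 6 h array gave a log2 ratio of -1.64, whereas that labelled 3 h gave 3.46. The difference between these arrays was not tested, because each is a single array. Without the array labelled 3 h, the range of its log2 ratios ran from -1.64 at 6 h to 0.03 at 24 h.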

How the results depend on the processing

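Members at 2-fold were counted again under each alternative. With the floor at the 60th percentile, which leaves fewer genes measured, 0 were lower at 1 h, 1 was higher and 0 lower at 6 h, and 0 were lower at 24 h. A floor at the 20th percentile gave 2 lower at 24 h, with Slc2a4 at a log2 ratio of -1.70. Against the mean of vehicle and 1 h, 1 was lower at 6 h, 2 at 12 h and 0 at 24 h. Quantile normalization left 2 higher at 24 h. Without the 5 members high in fat or skeletal muscle, a choice made after seeing the data, 1 was lower at 6 h and 6 were higher on the array labelled 3 h. For genes around the pathway, the lower floor gave 5, 9, 9 and 4 higher at 1, 6, 12 and 24 h. The higher floor gave 2 higher and 1 lower at 6 h, 0 higher and 1 lower at 12 h, 1 lower at 24 h, and 8 higher and 3 lower on the array labelled 3 h. The mean reference gave 3 higher at 12 h and 4 lower at 24 h. In all, 24 of 214 counts and medians moved, all of them counts, and no called member changed sign. The median over all genes moved by at most 0.12 with the scaling, on the array labelled 3 h (-0.14 to -0.02). Leaving that array out of the floor and the probe set choice moved no count by over 1.5 times. Where a cause is not named, the cause was not tested. No paired analysis was possible because each group has 1 array. Signals near the floor limit what can be said of Slc2a3, Slc16a1, Pfkp, Pfkfb3 and the vehicle value of Slc2a1.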
